A study of Mus musculus with 9 samples.

Results

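Among the miRNAs counted in mouse liver, a small set is known to be made without the nuclear nuclease Drosha. The rows described here were chosen by name: mmu-miR-320-3p, mmu-miR-484, and all rows whose names begin with mmu-miR-877- or mmu-miR-1224-. Of the 1140 rows of the deposited table, 4 met this rule: mmu-miR-320-3p, mmu-miR-484, mmu-miR-877-5p and mmu-miR-877-3p. No row began with mmu-miR-1224-, and this miRNA was not analysed here. The 4 rows together held between 0.00390% and 0.0133% of the counts of a library.

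Livers came from male C57BL/6 mice that were 8 weeks old when injections began. Control mice received intraperitoneal normal saline for 8 weeks (n = 3), and TAA mice received thioacetamide, a hepatotoxin that leads to liver fibrosis, by the same route and for the same time (n = 3). Recovery mice received the same TAA course and were then left for a further 8 weeks (n = 3). They were therefore older when killed, so that recovery and age cannot be told apart.

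In the usual pathway the Microprocessor (Drosha with DGCR8) cuts a hairpin from a long primary transcript, and Dicer then releases the mature miRNA. Some miRNAs bypass Microprocessor by one of 2 routes. miR-320 and miR-484 come from short transcripts whose own start forms the end of the hairpin, which carries a 7-methylguanosine cap. Mirtrons such as miR-877 and miR-1224 are whole short introns that fold into a hairpin after splicing and debranching. Counts of mature miRNAs do not show which route made them.

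The hairpins lie near the start of genes or inside an intron (GRCm38, GENCODE M21). Mir320 lies on chromosome 14 (70443510 to 70443591, plus strand), 63 bases from the nearest annotated start of Polr3d, which encodes a subunit of RNA polymerase III and runs the opposite way. Mir484 lies on chromosome 16 (14159626 to 14159692, plus strand), 359 bases from a start of Marf1 on the opposite strand and 3583 bases upstream of the nearest start of Nde1, a gene for a centrosomal protein. Its hairpin also overlaps an exon of another Marf1 transcript on the opposite strand, and without a stated use of strand in the counting, reads of both cannot be told apart. Mir877 lies on chromosome 17 (35960730 to 35960814, minus strand) and fills an 85-base intron of Abcf1, an ATP-binding cassette gene linked to translation, with 0 bases to spare at either end. The mature sequence of miR-484 and both arms of miR-877 are shown because their seeds (bases 2 to 8, in capitals) set which mRNAs they can pair with (RefSeq, GRCm38.p6).
mmu-miR-484: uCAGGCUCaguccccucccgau
mmu-miR-877-5p: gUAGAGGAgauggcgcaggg
mmu-miR-877-3p: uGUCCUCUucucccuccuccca
No other listed row with a sequence in this table (935 of 1106 known mouse miRNAs) shared a seed with any of these 3. The Mir877 hairpin is shown with the first and last 2 bases of the intron in capitals (chr17:35960730-35960814, minus strand), the GU and AG that splicing uses.
Mir877: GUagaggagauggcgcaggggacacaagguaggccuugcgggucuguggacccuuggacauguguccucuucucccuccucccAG
The 5p arm starts at base 1 of the intron, and the 3p arm ends 1 base before its last base.

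Total counts were between 9071847 and 12983378 per library. The hepatocyte marker mmu-miR-122-5p held 10.6% to 24.1% of the counts of a library. The row mmu-miR-122b-3p appeared to hold nearly the same reads, which thus entered the total count in both rows. Levels are given on 2 scales, since the choice changes the result: TPM as deposited, which is the count per 1000000 counts of the library, and counts per 1000000 after scaling with the trimmed mean of M values (TMM), which takes most miRNAs as unchanged (called CPM from here on). TMM factors were 0.739 to 0.792 in control, 1.43 to 1.63 in TAA and 0.766 to 0.887 in recovery libraries. A miRNA was called when its false discovery rate (FDR, edgeR quasi-likelihood test over all rows tested) was below 0.05 and its fold change at least 2.

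mmu-miR-320-3p was the most abundant of the 4 rows. It is a widely expressed miRNA made from the 3p arm of its hairpin. Its read counts were 355, 271 and 343 in the control libraries, 722, 701 and 766 in the TAA libraries, and 428, 517 and 311 in the recovery libraries. In TPM these were 27.3, 26.4 and 34.5 in control, 63.8, 77.3 and 83.6 in TAA, and 35.0, 42.1 and 24.95 in recovery mice. All TPM values of the TAA mice lay above those of both other groups, while control and recovery overlapped. Such a gap was common on this scale, being present in 73.3% of all rows tested for TAA above control and in 63.6% for recovery below TAA. On the TMM scale the levels were 38.6 ± 6.10 CPM in control, 47.8 ± 3.47 in TAA and 40.6 ± 10.5 in recovery mice (mean ± SD, n = 3), and the 3 groups overlapped.

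mmu-miR-484 was less abundant than mmu-miR-320-3p, and its TPM values were likewise highest in the TAA mice. The read counts were 207, 118 and 133 in control, 388, 477 and 409 in TAA, and 228, 154 and 244 in recovery libraries. In TPM they were 15.9, 11.5 and 13.4 in control, 34.3, 52.6 and 44.6 in TAA, and 18.7, 12.5 and 19.6 in recovery mice. Again the TAA values stood apart from both other groups, as in 73.3% of all rows tested for TAA above control and 63.6% for recovery below TAA. On the TMM scale mmu-miR-484 was measured at 17.8 ± 2.28 CPM in control, 27.9 ± 4.15 in TAA and 20.3 ± 5.42 in recovery mice. TAA lay above control without overlap on this scale, as did 39.3% of the rows tested, whereas the highest recovery library (24.4 CPM) exceeded the lowest TAA library (23.9 CPM).

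**Figure D1:**
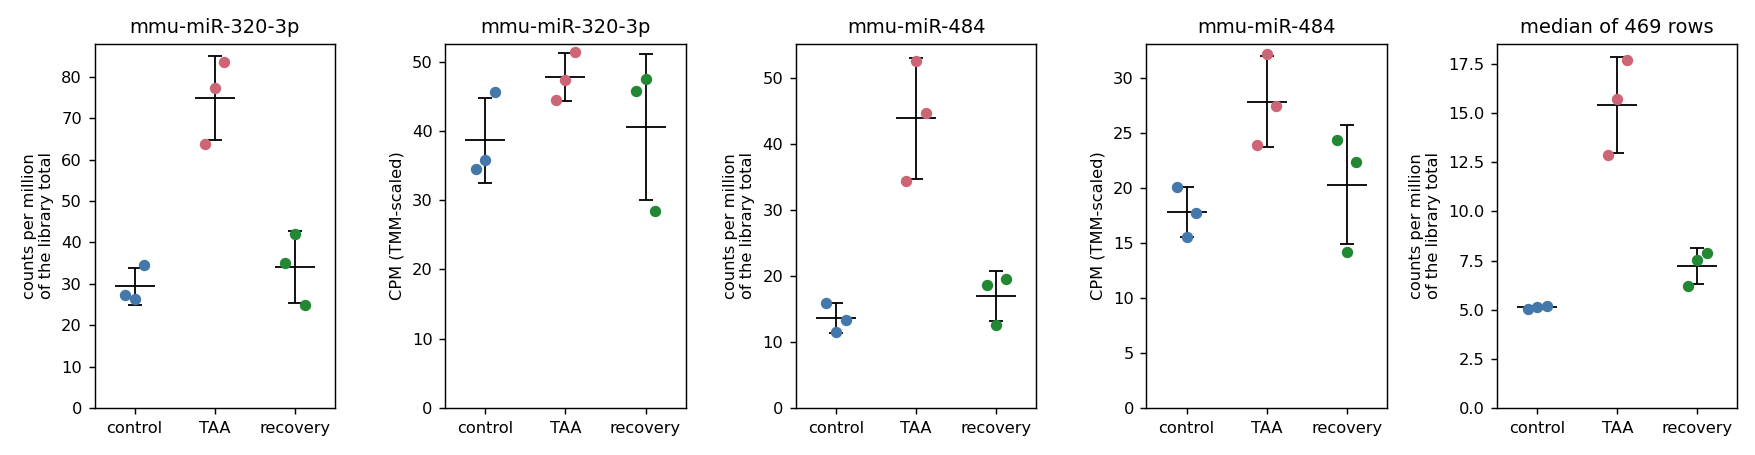
Levels of mmu-miR-320-3p and mmu-miR-484 in 9 livers, in TPM and in TMM-scaled CPM, with the median of the 469 rows counted in every library at the right. Points are mice, and the horizontal marks and bars are mean ± SD (n = 3); the TAA points stand apart in both TPM panels and for the median, and overlap control for mmu-miR-320-3p on the TMM scale.

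The comparison of TAA with control asked whether these miRNAs changed in fibrotic liver. In edgeR 0 of the 2 rows tested (mmu-miR-320-3p and mmu-miR-484) were called, where 41.7% of the 420 rows tested were called (25% higher and 16.7% lower), and DESeq2 also called 0. The log2 fold change of mmu-miR-320-3p was 0.22 (SE 0.16, 95% confidence interval -0.16 to 0.61, FDR 0.272). That of mmu-miR-484 was 0.56 (SE 0.21, 95% confidence interval 0.08 to 1.04, FDR 0.0471, unadjusted p 0.0271), so 1 of the 2 passed the FDR alone, but not the fold change. The FDR alone was passed by 58.3% of all rows, 31.9% with a higher level in TAA. The median log2 fold change of all 420 rows was 0.11, and the members stood at percentiles 53.0 and 62.7 of them. The result for mmu-miR-484 lay at the threshold: its FDR was 0.0501 in DESeq2 and ranged from 0.0180 to 0.154 when each replicate was left out in turn, with 1 of 6 such fits below 0.05 (without TAA replicate 1). It was 0.0141 among rows with a mean of at least 10 TPM (log2 fold change 0.77) and 0.0305 with all 9 libraries in one edgeR fit (0.64), both under a 2-fold change. When libraries were scaled to an equal median, the log2 fold changes were 0.09 for mmu-miR-484 (edgeR FDR 0.738) and -0.24 for mmu-miR-320-3p (FDR 0.278), so that the sign of the latter depended on the scaling. Under library totals both were called higher (log2 fold changes 1.35 and 1.68, each with FDR 0.000427), where 57.4% of all rows were called higher, 0.952% lower, and the median of all rows was 1.23.

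Comparison of recovery with TAA asked whether levels changed after withdrawal. It shares the TAA libraries with the comparison above. In edgeR and in DESeq2 0 of the 2 rows were called, against 24.8% of the 440 rows tested in edgeR (10.2% higher and 14.5% lower), and 0 had an unadjusted p below 0.05. The log2 fold change of mmu-miR-320-3p was -0.26 (SE 0.23, 95% confidence interval -0.79 to 0.27, FDR 0.410), and that of mmu-miR-484 was -0.49 (SE 0.26, 95% confidence interval -1.09 to 0.10, FDR 0.168). The median of all rows was -0.12, with the members at percentiles 43.1 and 34.4. For mmu-miR-320-3p the value was -0.019 with libraries scaled to an equal median and -0.42 among rows with a mean of at least 10 TPM. It lay between -0.37 (without recovery replicate 2) and -0.018 (without recovery replicate 3) when single replicates were left out. For mmu-miR-484 it was -0.25 with an equal median, -0.26 without recovery replicate 2 and -0.30 without TAA replicate 2. In the other direction it was -0.57 without recovery replicate 1. Among rows with a mean of at least 10 TPM it was -0.65 (unadjusted edgeR p 0.0453, FDR 0.0803). Without a filter on low counts it was -0.51 (unadjusted edgeR p 0.0444, FDR 0.172). Under library totals both were called lower, with log2 fold changes of -1.14 (FDR 0.00402) and -1.37 (FDR 0.00271), where 46.1% of all rows were called lower, 0.909% higher, and the median was -0.98.

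The comparison of recovery with control asked what difference was left after withdrawal. Again 0 of the 2 rows were called by edgeR or DESeq2 and 0 had an unadjusted p below 0.05, against 11.3% of 391 rows called in edgeR (10.5% higher and 0.767% lower). The log2 fold changes were 0.03 for mmu-miR-320-3p (SE 0.21, 95% confidence interval -0.43 to 0.49, FDR 0.957) and 0.15 for mmu-miR-484 (SE 0.23, 95% confidence interval -0.37 to 0.67, FDR 0.804). Both intervals leave out a 2-fold difference in either direction. Without single replicates the value of mmu-miR-320-3p lay between -0.077 (without recovery replicate 2) and 0.22 (without recovery replicate 3). Scaled to an equal library median the fold changes were -0.26 and -0.16, so that both signs depended on the scaling. Under library totals neither was called (0.21 with FDR 0.644, and 0.31 with FDR 0.492), where 12.5% of all rows were.

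**Figure D2:**
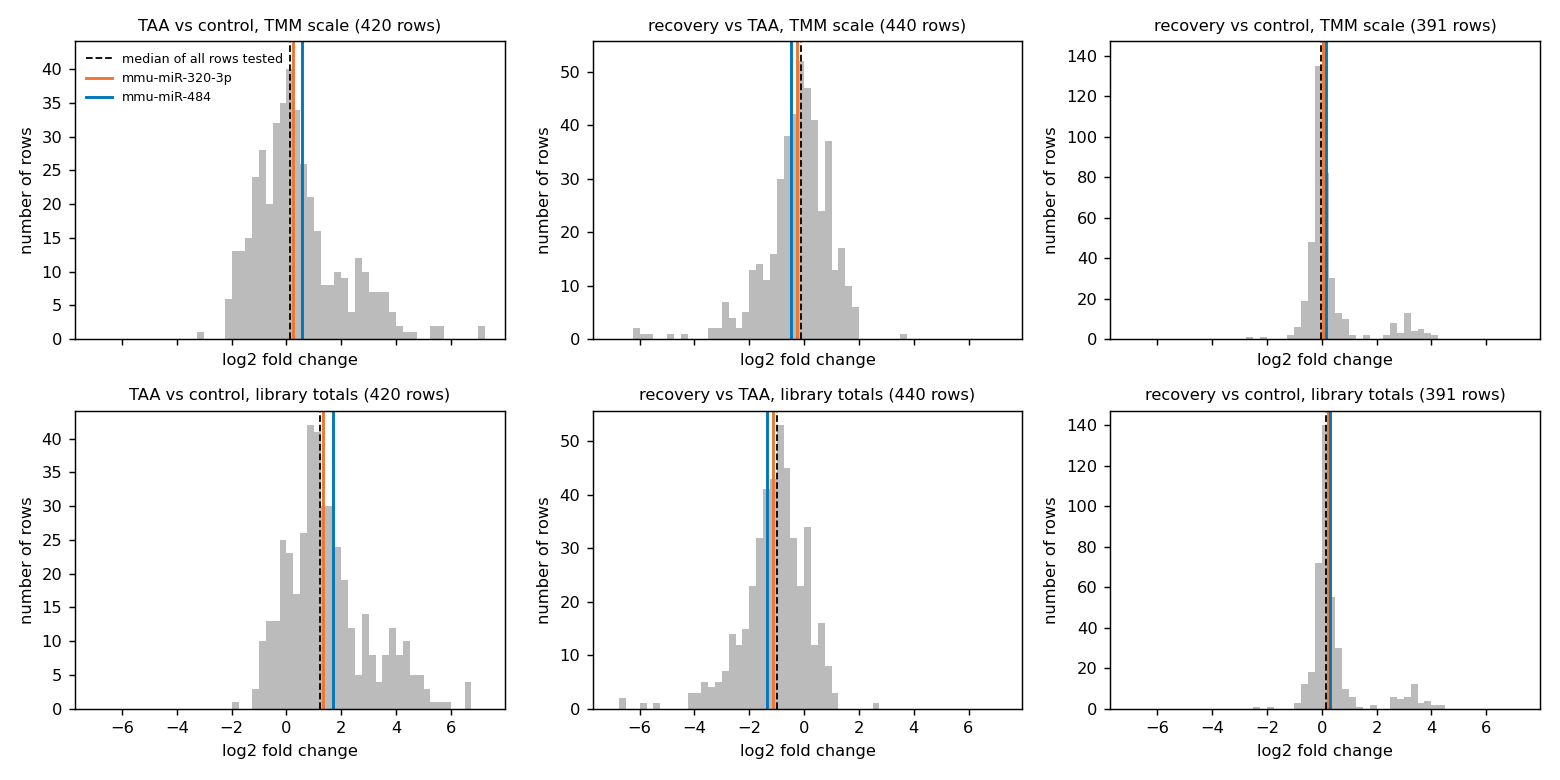
Histograms of the log2 fold changes of all rows tested in each comparison (420, 440 and 391 rows), on the TMM scale in the upper panels and with library totals in the lower panels. The dashed line is the median of all rows and the coloured lines are mmu-miR-320-3p and mmu-miR-484; both lines stay in the central part of the distribution on either scale, while the whole distribution moves between scales.

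Set against the library median, taken over rows with a count in every library, the capped-precursor miRNAs stood above it in all 9 libraries. The mirtron stood below it in all 9, but this depended on the rows used. Among all rows counted in its own library, mmu-miR-877-5p stood above 53.7% in TAA replicate 1 and 52.0% in TAA replicate 2. In the other libraries it stood above at most 44.2% of them. The median of the 469 rows with a count in every library was 5.11 ± 0.0656 TPM in control, 15.4 ± 2.45 in TAA and 7.21 ± 0.907 in recovery mice (n = 3). mmu-miR-320-3p was 5.43, 5.17 and 6.67 times this median in control, 4.97, 4.92 and 4.72 times in TAA, and 5.68, 5.59 and 3.16 times in recovery mice. Relative to the median, its TAA values lay just below all control values, by 0.23 on the log2 scale (2.28 ± 0.04 in TAA and 2.52 ± 0.19 in control, exact two-sided permutation p = 0.1). With 3 mice against 3, 0.1 is the smallest p that this test can give, and 42.1% of the 420 rows tested were likewise lower without overlap. Against the median of rows with a mean of at least 10 TPM the difference was 0.014, so its sign depended on the rows that define the median. mmu-miR-484 was 3.17, 2.26 and 2.59 times the median in control, 2.67, 3.35 and 2.52 times in TAA, and 3.03, 1.67 and 2.48 times in recovery mice, and all groups overlapped. Its log2 difference from control was 0.09 in TAA and -0.19 in recovery mice (exact permutation p = 0.6 for both). The first was -0.055 without the second control library and -0.040 without the second TAA library, and the second was 0.029 without the second recovery library. Recovery minus TAA was -0.07 for mmu-miR-320-3p (exact permutation p = 1), and 0.21 without the third recovery library. Recovery minus control was -0.30 for mmu-miR-320-3p (exact permutation p = 0.6), and ranged from -0.46 (without the first recovery library) to -0.018 (without the third) when single libraries were left out. For mmu-miR-484 recovery minus TAA was -0.28 (exact permutation p = 0.4).

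The place of a row in the order of its own library does not depend on the scale. Ordered from the most abundant row, mmu-miR-320-3p was at place 137, 134 and 123 in control, 139, 133 and 133 in TAA, and 127, 130 and 155 in recovery libraries. mmu-miR-484 was at place 166, 177 and 177 in control, 170, 151 and 163 in TAA, and 163, 203 and 172 in recovery libraries. The third recovery library held the lowest place of mmu-miR-320-3p and the second that of mmu-miR-484.

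**Figure D3:**
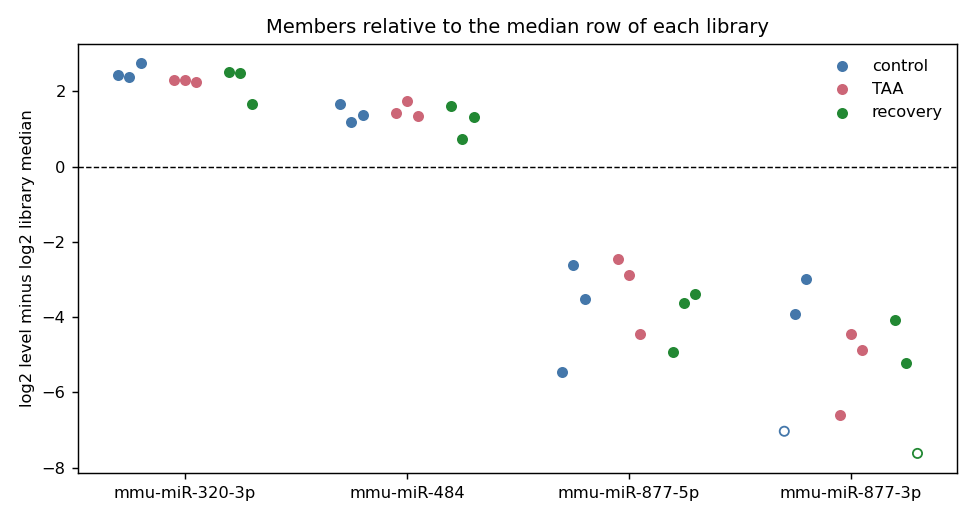
Log2 level of each of the 4 rows minus the log2 median of its library, for 9 mice. The dashed line at 0 is the library median, taken over the rows with a count in every library. Open circles mark libraries with a count of 0, plotted at a pseudocount of 0.5. Against this median mmu-miR-320-3p and mmu-miR-484 lie above in all 9 libraries and both arms of miR-877 lie below in all 9.

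The capped-precursor miRNAs could also be compared with each other inside each library. mmu-miR-320-3p had more counts than mmu-miR-484 in 9 of 9 libraries, although a ligation-based library can favour some sequences over others. The ratio was 1.71, 2.29 and 2.57 in control, 1.86, 1.47 and 1.87 in TAA, and 1.88, 3.35 and 1.27 in recovery mice, so all groups overlapped. On the log2 scale TAA was lower than control by a mean of 0.33 (0.78 ± 0.20 against 1.11 ± 0.30, exact permutation p = 0.3). Recovery minus TAA was 0.22 (exact permutation p = 0.7) and recovery minus control was -0.11 (exact permutation p = 0.9). The highest and the lowest of all 9 ratios both came from recovery mice, and these differences were -0.16 without the second and 0.21 without the third recovery library, respectively.

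Across the 9 libraries, the rows with a mean of at least 10 CPM whose log2 CPM followed mmu-miR-484 most closely were mmu-miR-23a-3p (Pearson r = 0.91), mmu-miR-652-3p (0.89) and mmu-miR-744-5p (0.87), out of 225 rows compared. For mmu-miR-320-3p they were mmu-miR-191-5p (0.77), mmu-miR-200c-3p (0.73) and mmu-miR-690 (0.71). mmu-miR-320-3p and mmu-miR-484 themselves had r = 0.23 and were each other's 82nd and 95th closest row. These values share libraries, groups and scaling and are a description.

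The mirtron miR-877 was counted only a few times in each library. Counts of mmu-miR-877-5p were 1, 8 and 4 in control, 26, 19 and 7 in TAA, and 2, 7 and 9 in recovery libraries. Counts of mmu-miR-877-3p were 0, 3 and 6 in control, 1, 6 and 5 in TAA, and 4, 2 and 0 in recovery libraries. The 2 highest 5p counts came from TAA libraries, but the count of the third TAA library lay inside the range of the other groups, and the 3p counts of all groups overlapped. In TPM, which takes depth into account, mmu-miR-877-5p was 0.0770, 0.779 and 0.402 in control, 2.30, 2.09 and 0.764 in TAA, and 0.164, 0.570 and 0.722 in recovery mice. Recovery thus lay below TAA without overlap on this scale (exact permutation p = 0.1, the smallest possible), as did 63.6% of the rows tested, whereas TAA and control overlapped (exact permutation p = 0.2). In CPM all groups overlapped (exact permutation p = 0.3 for both of these comparisons). A count of 0 of 12983378 in the control library allows up to 0.231 TPM and that in the recovery library up to 0.241 TPM, for counting error only.

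Both arms fell under the filter on low counts and were not tested. Without the filter the log2 fold change of mmu-miR-877-5p was 0.95 in TAA vs control (SE 0.70, 95% confidence interval -0.42 to 2.31, edgeR FDR 0.391), -0.98 in recovery vs TAA (FDR 0.345) and 0.04 in recovery vs control (FDR 0.982). DESeq2 gave 0.93, -0.94 and 0.02 (adjusted p 0.461, 0.400 and 0.991). For mmu-miR-877-3p edgeR without the filter gave -0.56 (SE 0.89, FDR 0.639), -0.48 (SE 0.96, FDR 0.771) and -0.94 (SE 1.06, FDR 0.724). The interval of the 5p arm in TAA vs control includes both no change and a more than 2-fold rise, so a difference was neither shown nor excluded. Relative to the library median, the 5p arm stood at 0.0229 to 0.182 times the median. Its TAA minus control difference on the log2 scale was 0.61 (-3.25 ± 1.04 against -3.86 ± 1.44, exact permutation p = 0.6), and that of the 3p arm was -0.67 (-5.31 ± 1.14 against -4.64 ± 2.12, exact permutation p = 0.6).

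The 5p arm was the more abundant one, with 83 counts in all against 27 for the 3p arm, and was higher in 7 of 9 libraries. The exceptions were the third control and the first recovery library. The log2 ratio of the arms was 0.78 ± 1.14 in control, 2.06 ± 1.89 in TAA and 1.66 ± 2.55 in recovery mice, and the exact permutation p was 0.5 for TAA vs control, 1 for recovery vs TAA and 0.8 for recovery vs control.

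**Figure D4:**
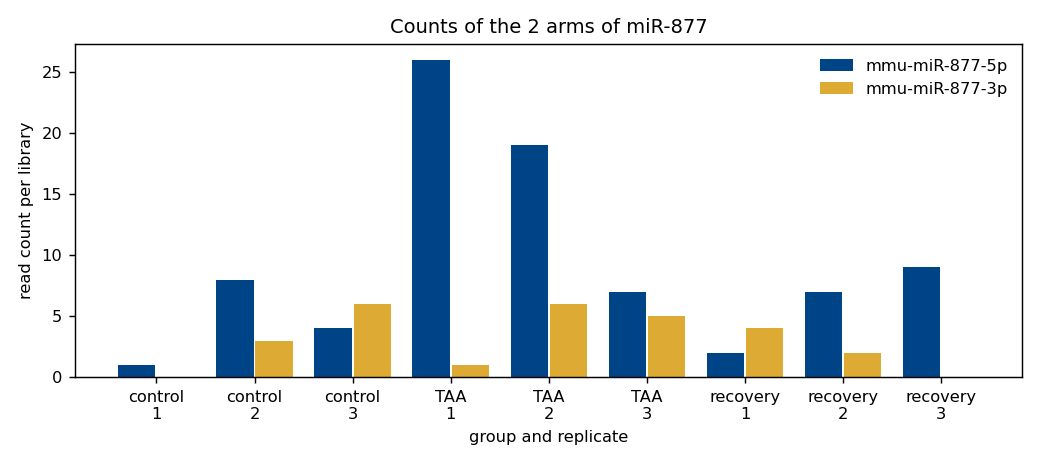
Read counts of mmu-miR-877-5p and mmu-miR-877-3p in each of the 9 libraries. Bars start at 0; the 5p counts reach 26 and 19 in 2 TAA libraries and stay at 9 or below in the other 7, and the 3p counts lie between 0 and 6.

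To set miR-877 beside other intron-sized hairpins, all hairpins in the RefSeq table were matched to GENCODE introns of at most 250 bases with both ends within 10 bases. Of 1005 hairpins 23 met this rule, and 12 of them had rows in the table, 15 rows in all. Of these rows 10 had at most 9 counts over the 9 libraries, and 4 had a count in every library (mmu-miR-1981-5p, mmu-miR-1981-3p, mmu-miR-877-5p and mmu-miR-1982-3p, the last with 18 counts in all and named after its values were seen). The most abundant was mmu-miR-1981-5p, with 9348 counts in all, followed by mmu-miR-1981-3p with 768, then both arms of miR-877. The Mir1981 hairpin is shown because it has the same layout as Mir877 (chr1:184822407-184822488, minus strand). It fills an 82-base intron of Marc2, and its first and last 2 bases are in capitals.
Mir1981: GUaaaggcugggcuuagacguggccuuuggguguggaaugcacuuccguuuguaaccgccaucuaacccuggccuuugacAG
As in Mir877, the 5p arm starts at base 1 of the intron. mmu-miR-1981-5p was measured at 82.0 ± 9.34 CPM in control, 104.7 ± 13.2 in TAA and 78.4 ± 21.2 in recovery mice (n = 3). Its log2 fold change was 0.27 in TAA vs control (SE 0.15, edgeR FDR 0.157), -0.44 in recovery vs TAA (SE 0.23, FDR 0.167) and -0.10 in recovery vs control (SE 0.19, FDR 0.841). The 2 miR-1981 rows were the only ones of the 15 that passed the filter with all libraries of a comparison. In each of the 3 comparisons 0 of these 2 were called by edgeR or DESeq2, and 0 had an unadjusted p below 0.05. Under library totals 2 of 2 were called higher in TAA vs control and lower in recovery vs TAA, as for the members. On that scale 57.4% of all rows were called higher in TAA vs control and 46.1% lower in recovery vs TAA. The medians of their log2 fold changes were 0.25, -0.31 and 0.01 on the TMM scale, beside 0.11, -0.12 and -0.03 for all rows tested.

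Markers of liver cell types also differed between the groups. Of all rows tested in TAA vs control, 25% were called higher and 16.7% lower on the TMM scale. Under library totals 57.4% were called higher and 0.952% lower. In recovery vs TAA 10.2% were called higher on the TMM scale and 0.909% under library totals. On the TMM scale the 2 hepatocyte miRNAs (mmu-miR-122-5p and mmu-miR-192-5p) summed to between 356714 and 371793 CPM in control, between 105256 and 112019 in TAA and between 268495 and 396807 in recovery mice. In edgeR 2 of 2 were called lower in TAA vs control and higher in recovery vs TAA, while under library totals 0 passed the fold change (medians -0.65 and 0.56). The 3 biliary miRNAs summed to between 565 and 739 CPM in control, 3248 to 5470 in TAA and 1203 to 1371 in recovery mice. Of these, 3 of 3 were called higher in TAA vs control on either scale. The 5 mesenchymal miRNAs summed to 25480 to 31109 CPM in control, 18032 to 39505 in TAA and 21869 to 35800 in recovery mice, and 3 were called higher in TAA vs control (4 under library totals). The 4 leukocyte miRNAs summed to 187 to 208 CPM in control, 262 to 309.9 in TAA and 141 to 217 in recovery mice, and 1 was called higher in TAA vs control (4 under library totals and 0 with libraries scaled to an equal median). The 3 erythroid miRNAs summed to 789 to 1339 CPM in control, 206 to 461 in TAA and 329 to 622 in recovery mice. In TAA vs control 1 was called lower on the TMM scale, and 0 under library totals, with a median of 0.10. With libraries scaled to an equal median 3 were called lower, and 2 with the size factors of DESeq2 in edgeR. The endothelial mmu-miR-126a-3p was at 7653 to 8174 CPM in control, 5226 to 6457 in TAA and 7533 to 8335 in recovery mice. It was not called on the TMM scale or under library totals, and its sign in TAA vs control depended on the scale (-0.55 with TMM and 0.58 under library totals). With libraries scaled to an equal median it was called lower in TAA vs control (log2 fold change -1.01), where 185 of 420 rows were called in either direction. No list was at 0 in any group. In whole liver, fewer cells of a type and less RNA per cell cannot be told apart, and the part of cell composition in the values of mmu-miR-320-3p and mmu-miR-484 was not tested.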

How the data were processed

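Small RNA libraries of 9 livers were sequenced by the authors. Per the labels and the study's methods, reads were mapped to mm10 and miRBase 22.1 with Bowtie 1.3.0. The authors deposited a read count per mature miRNA, not normalized, and a TPM value. The deposited TPM equalled the count per 1000000 counts of the column (largest difference 4.96e-05), with no length term. The handling of multi-mapping reads and of strand is not given in the sources used here. Some rows had equal edgeR results under library totals. In TAA vs control mmu-miR-142a-3p equalled mmu-miR-142b (log2 fold change 1.76, SE 0.210), and mmu-miR-338-3p equalled mmu-miR-3065-5p (0.830, SE 0.386). The same reads thus appeared to enter both rows of each pair, and the use of strand was not tested.

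Counts were tested with edgeR 4.0.16 (R 4.3.3; filterByExpr, minimum count 10; TMM; quasi-likelihood F test; Benjamini-Hochberg over all rows tested; 6 libraries per comparison). SE was taken as the log2 fold change divided by the square root of F. Single values were compared by exact two-sided permutation. DESeq2 1.42.0, other scalings and filters, a replicate block and the removal of each replicate were alternatives. The edgeR test was checked on simulated data with the layout of TAA vs control. Levels relative to the median used a pseudocount of 0.5. The members and lists were chosen with earlier results of these data known. Named rows were the members, rows sharing a seed, the 3 rows closest to each capped-precursor miRNA and the most abundant intron-sized hairpins. The smallest chi-square per degree of freedom between replicates was 26.2, so none agreed within sampling noise. Limits given for counts of 0 cover counting error only, whereas the edgeR intervals and p-values include the spread between these mice.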

Additional observations from a re-analysis of the deposited data

How the results depend on the processing

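Across alternatives, 296 recomputed values were counted as unchanged, while 28 changed sign, 8 counts moved and 4 values newly passed the call. Values counted as unchanged did not always keep their side of the FDR threshold. For mmu-miR-484 in TAA vs control the FDR was 0.0471 in the main edgeR fit and 0.0501 in DESeq2, with no call in either. The 245 rows called with the FDR alone in TAA vs control, against 175, were also counted as unchanged. Under library totals 2 members were called in the comparison of TAA with control, 2 in that of recovery with TAA. With the FDR alone 1 was called in TAA vs control. All rows called numbered 85, 60 and 13 (TAA vs control, recovery vs TAA, recovery vs control) with a mean of at least 10 TPM, against 175, 109 and 44. The rows tested numbered 239, 248 and 208, against 420, 440 and 391. In recovery vs TAA the rows called numbered 172 with the FDR alone and 207 under library totals. Scaling to the library median turned mmu-miR-320-3p to -0.24 (TAA vs control) and -0.26 (recovery vs control), and mmu-miR-484 to -0.16 (recovery vs control). With the median of rows of at least 10 TPM, the difference became 0.014 for mmu-miR-320-3p (TAA vs control), and 0.019 for mmu-miR-484 and 0.099 for mmu-miR-877-5p (recovery vs control). The causes were not tested.

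Leaving out 1 replicate moved the log2 fold change of mmu-miR-320-3p in recovery vs control between -0.077 (without recovery replicate 2) and 0.22 (without recovery replicate 3). Relative to the median, recovery minus TAA of mmu-miR-320-3p ranged from -0.18 to 0.21, TAA minus control of mmu-miR-484 from -0.055 to 0.17 (below 0 without control replicate 2 or TAA replicate 2) and recovery minus control of mmu-miR-484 from -0.39 to 0.029 (above 0 without recovery replicate 2). For mmu-miR-877-3p the ranges were -1.93 to 0.087 in TAA vs control, -1.08 to 0.68 in recovery vs TAA and -2.23 to 0.0071 in recovery vs control, and for mmu-miR-877-5p -0.25 to 1.20 in TAA vs control and -0.95 to 0.51 in recovery vs control. The log2 ratio of mmu-miR-320-3p to mmu-miR-484 ranged from -0.16 (without recovery replicate 2) to 0.54 in recovery vs TAA and from -0.48 to 0.21 (without recovery replicate 3) in recovery vs control. That of the miR-877 arms ranged from -1.69 to 0.86 in recovery vs TAA and from -0.41 to 2.14 in recovery vs control.

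Replicate numbers mark different mice, and same-numbered libraries deviated together with correlations of -0.14 to 0.18, so the numbers were not taken to pair the samples. With the replicate block 0 members were called in each comparison, all rows called numbered 178, 106 and 44, and the log2 fold change of mmu-miR-484 in TAA vs control was 0.55 (edgeR FDR 0.0683). With 3 mice in each group, exact permutation tests cannot go below p = 0.1. The low counts of miR-877 (83 for the 5p arm and 27 for the 3p arm over 9 libraries) limit what can be seen of it.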
